A study of Mus musculus with 12 samples.

Results

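The genes described are 5 adrenergic receptors (Adrb1, Adrb3, Adra1a, Adra1b and Adra2a) and 2 phosphodiesterases that break down cAMP (Pde3b and Pde4d). They were taken by symbol, and all 7 were found among the 22276 gene symbols of the expression table. Noradrenaline and adrenaline act on these receptors. The beta receptors raise cAMP through the stimulatory G protein, the alpha-2 receptors lower it through the inhibitory G protein, and the alpha-1 receptors signal through phospholipase C and calcium. In adipocytes cAMP activates protein kinase A, which starts lipolysis and, in brown fat, thermogenesis, and phosphodiesterases end the signal by hydrolysing cAMP.

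The libraries came from white (WAT) and brown adipose tissue (BAT), liver and quadriceps muscle of male C57BL/6J mice of 17 wk. NCD-veh mice ate a normal chow diet and received vehicle, HFD-veh mice ate a high-fat diet and received vehicle, and HFD-ncls mice ate the high-fat diet and received narciclasine (ncls), a plant alkaloid. Runs of 3 values are given in that order of groups. The diets ran from 8 wk of age, and ncls at 1 mg/kg or vehicle was gavaged weekly from 10 wk of age. There was 1 library for each of 4 organs and 3 groups, 12 in all, and neither the number of mice behind a library nor the WAT depot was given. All mice shared sex and strain, and ncls-treated mice on the normal diet were not analysed here.

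Levels are FPKM, the number of fragments divided by exon length and by the fragments mapped, which can be compared between genes because they are given per length. With 1 library per organ and group there was no replicate error, no test of a difference between groups and no p-value. Each difference is between 2 libraries. Depth was about 17700000 to 25700000 fragments per library, and 9130 to 12052 genes reached 1 FPKM. The defining markers were present in each labelled tissue, with Adipoq at 1599.8 FPKM or more in WAT, Ucp1 at 740 to 770.0 in BAT, Apoa2 at 15429.8 or more in liver and Ckm at 15744 or more in muscle. Several libraries held markers of another organ. In HFD-veh muscle all 12 hepatocyte markers passed 1 FPKM, against 0 in the other muscle libraries. In BAT the summed skeletal muscle fibre markers were 2233, 915 and 131 FPKM. The values beside the results below show where these libraries touch a member.

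On mm9, by the GENCODE annotation, Adrb3 lies at chr8:28336248-28340060 (- strand), Adrb1 at chr19:56796862-56799352 (+) and Adra2a at chr19:54119672-54123472 (+). Adra1a lies at chr14:67254088-67390005 (+), Adra1b at chr11:43588108-43714712 (-), Pde3b at chr7:121558795-121682765 (+) and Pde4d at chr13:109240142-110743669 (+). No other annotated gene overlapped the first 6 of these. A second annotated entry of Pde4d lies at chr13:110744317-110746171 (+). Over both entries Pde4d has 20 annotated transcripts, so its FPKM pools many isoforms. The longer entry holds 4 small genes within its span (Gm9000, Mir582, Gm10737 and Mir1904). The use of strand in the authors' counting was not given in the sources used here.

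The 250 bases before a RefSeq transcription start were listed for 4 of the 7 genes. Those of Adra1b and Adrb1 are shown. Adra1b led the 5 receptors in liver, and Adrb1 had its own highest level in BAT, below Adrb3 and Adra1a there. Adra1b also has 2 separate starts that a value per gene symbol cannot tell apart. The sequences come from the RefSeq table of GRCm38.p6, were each found once in mm9, and are written 5′ to 3′ on the strand of the gene. Capitals mark a GC box (GGGCGG or its complement CCGCCC) or the core of the cAMP response element (TGACG or CGTCA).
Adra1b, upstream start, mm9 chr11:43714740-43714989 (-): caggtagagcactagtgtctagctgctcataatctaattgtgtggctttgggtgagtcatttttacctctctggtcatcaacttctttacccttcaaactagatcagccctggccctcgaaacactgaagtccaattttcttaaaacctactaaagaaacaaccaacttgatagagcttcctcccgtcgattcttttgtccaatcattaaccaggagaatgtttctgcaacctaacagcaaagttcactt
Adra1b, downstream start, mm9 chr11:43649992-43650241 (-): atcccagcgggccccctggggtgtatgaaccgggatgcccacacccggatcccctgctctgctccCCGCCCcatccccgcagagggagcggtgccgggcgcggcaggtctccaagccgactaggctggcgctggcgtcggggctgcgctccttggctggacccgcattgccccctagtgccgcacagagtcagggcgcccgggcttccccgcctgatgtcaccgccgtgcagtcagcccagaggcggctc
Adrb1, mm9 chr19:56796357-56796606 (+): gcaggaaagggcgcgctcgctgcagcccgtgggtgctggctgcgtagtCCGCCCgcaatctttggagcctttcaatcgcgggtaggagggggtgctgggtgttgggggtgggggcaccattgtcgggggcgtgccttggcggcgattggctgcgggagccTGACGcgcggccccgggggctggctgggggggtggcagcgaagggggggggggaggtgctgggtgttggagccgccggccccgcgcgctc

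The upstream window of Adra1b lies outside the annotated gene and the downstream one inside it. The upstream window held 41.6% G and C and the downstream one 72.8%, against a median of 52.4% over all windows. The Adrb1 window held 74.0% G and C, 1 GC box and 1 core of the cAMP response element. A GC box was found in 32.7% and this core in 17.8% of 32851 mouse windows of the same length. The whole element, TGACGTCA, was in none of the 5 windows listed for the 4 genes and in 1.55% of all windows. These matches describe the letters of a window and show neither binding nor use of a start.

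The leading receptor among the 5 differed between organs. Adrb3, the beta receptor of adipocytes, led in WAT with 211.6 FPKM on the normal diet (NCD-veh), 67.0 on the HFD (HFD-veh) and 70.4 with ncls (HFD-ncls). It also led in BAT, with 13.4, 51.9 and 24.5 FPKM in these groups. In liver Adra1b, an alpha-1 receptor through which catecholamines stimulate hepatic glucose output, led with 18.7, 14.6 and 22.3 FPKM in the same order. In muscle Adrb3 was again the highest of the 5, but only at 1.05, 0.662 and 0.769 FPKM.

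**Figure D1:**
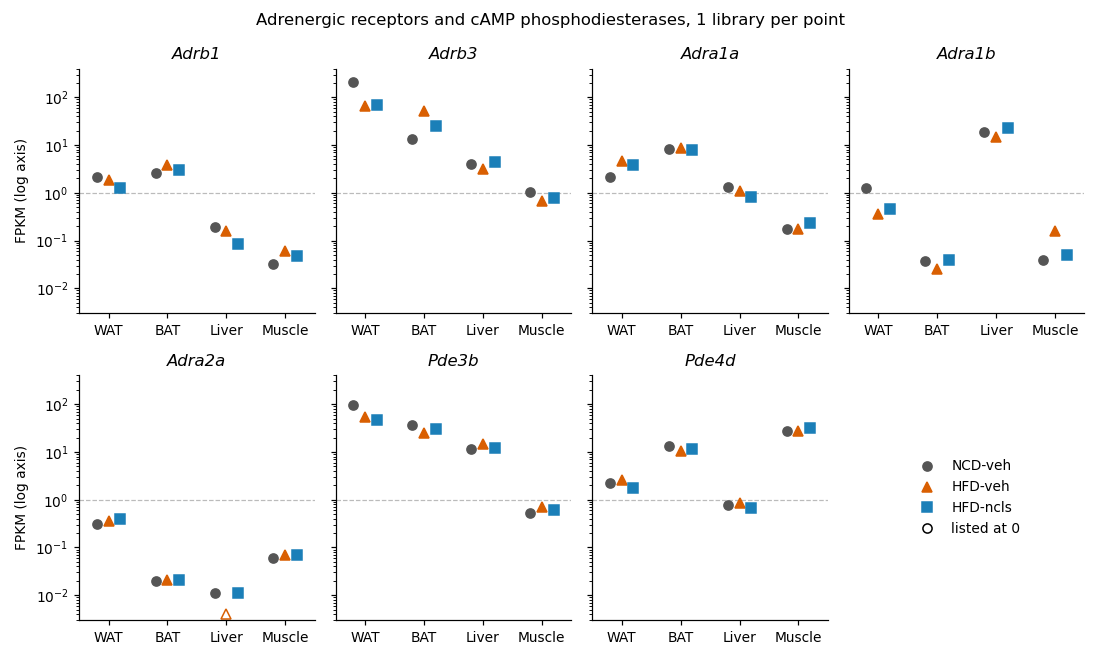
FPKM of the 7 genes (log axis) in WAT, BAT, liver and muscle, with 1 point per library, circles (NCD-veh), triangles (HFD-veh) or squares (HFD-ncls). The dashed line marks 1 FPKM and the open triangle at the bottom of the Adra2a panel a value listed at 0. Adrb3 is highest in WAT, Adra1b in liver and Pde4d in muscle.

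As a share of the summed FPKM of these 5 receptors, Adrb3 made up 93.3% ± 3.58 in WAT and 68.3% ± 12.9 in BAT, and Adra1b 78.3% ± 2.28 in liver (mean and SD over the 3 libraries of an organ, which differ in diet and treatment). The Adrb3 share in muscle was 67.2% ± 9.27. The 5 receptors summed to 1.36, 1.13 and 1.17 FPKM in muscle, against 24.4 FPKM or more in every library of WAT and BAT. The shares and the leading receptor hold among these 5 only, and they do not show which adrenergic receptor is highest in an organ.

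**Figure D2:**
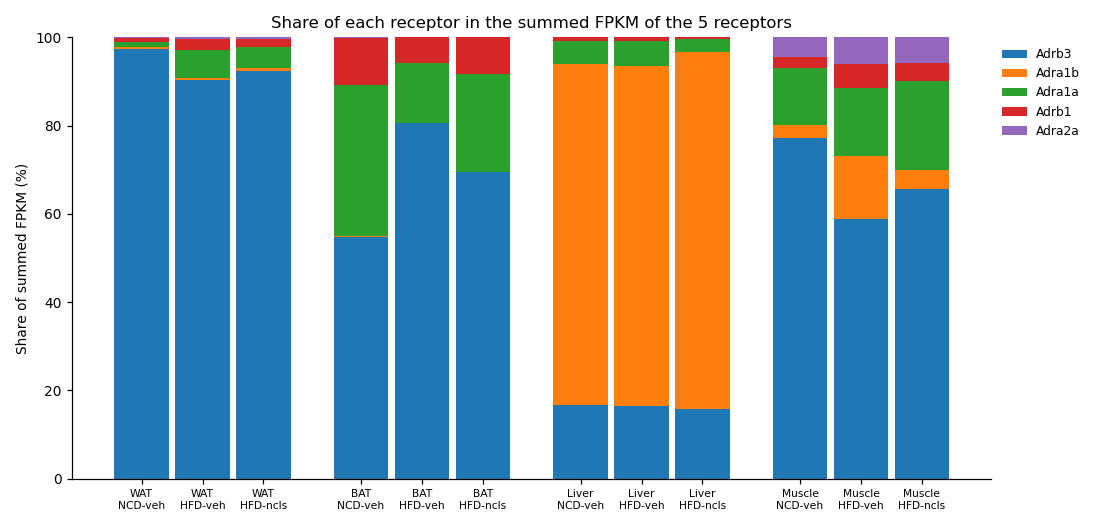
Share (%) of each of the 5 receptors in their summed FPKM, with 1 bar per library. Adrb3 takes most of each WAT and muscle bar and Adra1b most of each liver bar, while the Adrb3 share in BAT runs from 54.8% in NCD-veh to 80.5% in HFD-veh.

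Adrb3 stepped down across the organs from WAT to BAT, liver and muscle, with means of 116, 29.9, 3.86 and 0.827 FPKM. No neighbours in this order overlapped on the FPKM scale. In bulk tissue fewer cells of a type and less RNA per cell cannot be told apart. The gap between WAT and BAT differed by group. The BAT level was 6.33% of the WAT level on the normal diet, 77.4% on the HFD and 34.8% with ncls. Leptin, made by white adipocytes, was in BAT at 0.199%, 0.307% and 0.200% of its WAT level in the same groups, and Retn, the adipocyte hormone resistin, at 4.22%, 1.80% and 1.86%. In liver Adrb3 was at 4.07, 3.15 and 4.35 FPKM. The 8 adipocyte markers there summed to 11.99, 30.6 and 24.3 FPKM, with 3 to 4 of them at 1 FPKM or more and Adipoq, Lep and Retn listed at 0, and their part in the Adrb3 level was not tested. In muscle its level was 0.497%, 0.989% and 1.09% of that in WAT, and the adipocyte gene Adipoq was there at 0.401%, 1.25% and 0.892%. The part of adipocytes between the fibres in the muscle value was not tested.

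Adrb1, the beta receptor best known from heart and present in fat, was low in all organs. It was at 2.61, 3.81 and 2.93 FPKM in BAT and at 2.14, 1.85 and 1.28 in WAT. All 3 BAT libraries lay above all 3 WAT libraries. Liver held 0.0855 to 0.188 FPKM and muscle 0.0322 to 0.0613, the latter about 2 to 3.9 fragments per library. Adra1a, an alpha-1 receptor, followed the same order of organs. It was at 8.40, 8.67 and 7.79 FPKM in BAT, at 2.17, 4.60 and 3.74 in WAT, at 0.801 to 1.29 in liver and at 0.174 to 0.237 in muscle. The BAT values of Adra1a stayed close together, with an SD of 0.451 FPKM around a mean of 8.29.

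Adra1b had the largest ratio of the 5 between its first and its second organ. Its mean of 18.5 FPKM in liver was 26.7 times that in WAT, where it was at 1.26, 0.364 and 0.453. BAT held 0.0258 to 0.0387 FPKM, about 2.1 to 3.2 fragments. In muscle Adra1b was at 0.0388, 0.160 and 0.0501 FPKM, on only about 3.2, 13.7 and 4.3 fragments. Its highest value was in the library that held hepatocyte markers. That value was 1.09% of the liver level, against 0.208% and 0.224% in the other muscle libraries, while the hepatocyte markers there stood at a median of 0.584% (0.308% to 0.795%) of their liver level. Adra1b in WAT was 6.77%, 2.49% and 2.03% of its liver level, where the median hepatocyte marker was at 0.00233%, 0.0714% and 0.265%. With the diet Adra1b was lower in WAT while these markers were higher. With ncls the markers were higher. Adra1b was then under 1 FPKM in both libraries, on about 26.7 fragments in HFD-ncls and 24.2 in HFD-veh, so no direction was read.

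Adra2a, an alpha-2 receptor that restrains lipolysis, did not reach 1 FPKM in any library. It was at 0.317, 0.351 and 0.385 FPKM in WAT, about 24.7 to 26.5 fragments. Muscle held 0.0614 to 0.0693 FPKM and BAT 0.0195 to 0.0204. In liver it was at 0.0109 FPKM in NCD-veh and HFD-ncls, about 1 fragment, and listed at 0 in HFD-veh. The WAT libraries lay above the other 9, but at this depth differences among the groups were not detectable.

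Pde3b, the phosphodiesterase through which insulin lowers cAMP in adipocytes and hepatocytes, was at 96.1, 54.8 and 46.7 FPKM in WAT and at 36.9, 25.0 and 30.5 in BAT. In liver it was at 11.5, 14.8 and 12.2, and in muscle at 0.528, 0.703 and 0.616. Pde4d, a cAMP-specific phosphodiesterase that is recruited to beta receptors, had another order of organs. It was at 27.9, 27.3 and 31.1 FPKM in muscle, at 13.1, 10.4 and 11.3 in BAT, at 2.21, 2.61 and 1.76 in WAT and at 0.680 to 0.858 in liver. The BAT level of Pde4d was 47.0%, 38.3% and 36.4% of the muscle level, where the median skeletal muscle fibre marker stood at 1.97%, 0.767% and 0.112%.

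Among the 16 phosphodiesterases that can hydrolyse cAMP, Pde3b held 37.9% ± 15.9 of the summed FPKM in WAT, 31.3% ± 4.20 in BAT and 38.4% ± 3.78 in liver (mean and SD over 3 libraries), the highest mean share in each of these organs. In muscle it held 0.697% ± 0.140 and Pde4d led with 32.3% ± 2.22. Pde4d held 11.8% ± 0.693 in BAT and 1.25% ± 0.211 in WAT. The Pde3b share in WAT was 56.1%, 30.3% and 27.1%, while the summed FPKM stayed between 171 and 181. Pde2a, a phosphodiesterase stimulated by cGMP, went from 22.1 FPKM in WAT on the normal diet to 57.9 on the HFD and 55.9 with ncls. It thereby passed Pde3b in both HFD libraries of WAT. Pde7a, a cAMP-specific enzyme, went from 7.80 to 24.3 and 23.8 FPKM in the same libraries.

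**Figure D3:**
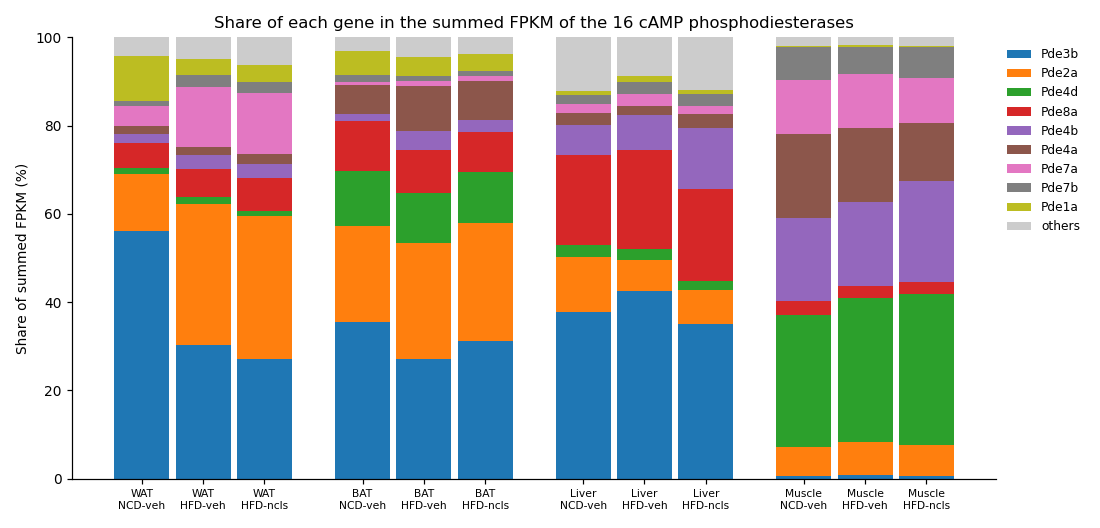
Share (%) of each gene in the summed FPKM of the 16 cAMP phosphodiesterases, with 1 bar per library and the 7 lowest genes pooled as others. Pde3b holds 56.1% of NCD-veh WAT and about 30% of both HFD bars there (30.3% and 27.1%), and Pde4d holds 29.9% to 34.3% of the muscle bars.

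Over the 12 libraries 6 of the 7 genes passed the filter of 1 FPKM in at least 1 library, and all 6 were highest in 1 organ, with its lowest library above the highest of the other 9. These were Adrb3 and Pde3b in WAT, Adrb1 and Adra1a in BAT, Adra1b in liver and Pde4d in muscle. Such separation was common. Of 13648 genes, 45.9% met it for WAT, 6.16% for BAT, 12.2% for liver and 11.0% for muscle. Between BAT and WAT alone, 6 genes passed the filter and none of them overlapped, with Adrb1, Adra1a and Pde4d higher in BAT and Adrb3, Adra1b and Pde3b higher in WAT. Over 12747 genes 82.9% did not overlap, so the count over the members is not a result about them. The WAT libraries had higher FPKM over most genes, with median-ratio factors of 1.48 to 1.54 against 0.806 to 0.915 in the other organs.

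After division by these factors 4 members were still highest in 1 organ, Adrb1 and Adra1a in BAT, Adra1b in liver and Pde4d in muscle. The shares of all genes were then 22.3% for WAT, 10.1% for BAT, 17.5% for liver and 18.5% for muscle. Adrb3 and Pde3b no longer were, because WAT and BAT overlapped. The rescaled Adrb3 level was 142, 44.6 and 45.9 in WAT and 14.6, 59.2 and 28.0 in BAT, so that HFD-veh BAT lay above HFD-veh WAT. The rescaled Pde3b level was 64.7, 36.5 and 30.4 in WAT and 40.3, 28.5 and 34.9 in BAT. Of the 5 members that then passed the filter over BAT and WAT, 3 did not overlap (Adrb1, Adra1a and Pde4d, all higher in BAT), beside 74.6% of all genes. The higher WAT level of Adrb3 thus held in all groups on FPKM and in NCD-veh and HFD-ncls after rescaling.

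The change with diet in WAT was read from HFD-veh against NCD-veh as a log2 ratio of FPKM + 0.1, for genes with at least 1 FPKM in either library, and folds are ratios of FPKM without the pseudocount. Of the 6 members that passed this filter, 1 was over 2-fold higher and 2 over 2-fold lower in HFD-veh, where 9.11% of 12208 genes passed 2-fold. The median over the 6 was -0.51, against 0.03 over all genes. Adrb3 was lower by 3.16-fold (log2 ratio -1.66), and 0.795% of genes had a lower ratio. Adra1b was lower by 3.47-fold (log2 ratio -1.55), on about 86.2 fragments in NCD-veh and 24.2 in HFD-veh. It reached 1 FPKM in NCD-veh only (1.26 against 0.364 FPKM), so it entered the count and the median of the 6 through its higher library. Adra1a was 2.12-fold higher (log2 ratio 1.05). Pde3b was lower by 1.75-fold (log2 ratio -0.81, with 5.82% of genes lower still), Adrb1 had a log2 ratio of -0.20 and Pde4d one of 0.23.

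Adrb3, with about 12122 fragments in NCD-veh and 3726 in HFD-veh WAT, stayed past 2-fold under each pseudocount, filter and rescaling tried, while the calls of Adra1a and Adra1b were lost with a pseudocount of 1 or a minimum of 5 FPKM. Other cell types moved in the same libraries. The summed macrophage markers were 715, 1126 and 1414 FPKM, with 5 of 9 genes over 2-fold higher in HFD-veh. The summed adipocyte markers were 28581, 20113 and 18492 FPKM. Within that list 1 gene was over 2-fold higher in HFD-veh, Lep (300, 1199 and 1062 FPKM), and 1 lower, Cfd (8163, 653 and 753 FPKM). All 9 hepatocyte markers that passed the filter were over 2-fold higher. Of the 12 listed, 2 reached 1 FPKM in NCD-veh and 9 in HFD-veh, so most passed the filter only through HFD-veh. The summed smooth muscle and pericyte markers were 144, 265 and 247 FPKM (1 of 5 over 2-fold higher) and the endothelial ones 167, 261 and 272 (0 of 6). The lymphocyte markers summed to 8.69, 2.61 and 6.55 FPKM (2 of 2 over 2-fold lower, both at 1 FPKM or more in NCD-veh only). The fibroblast and preadipocyte ones summed to 1414, 1053 and 1191 (2 of 6 lower). The part of these cells in the member values was not tested.

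**Figure D4:**
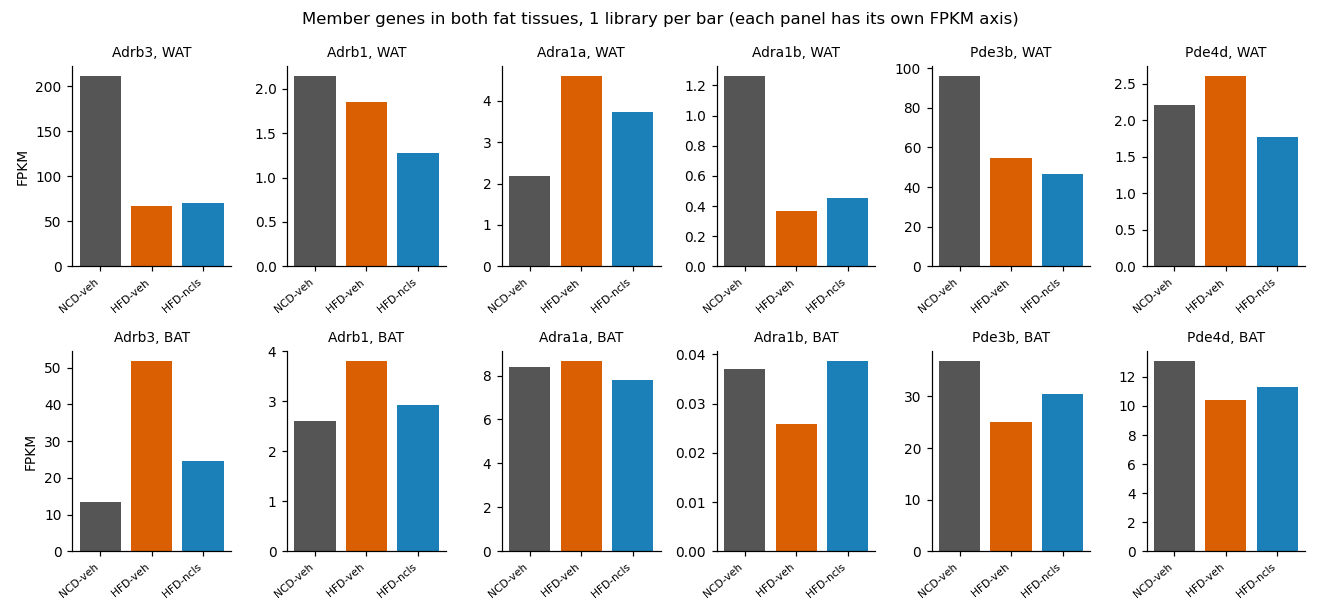
FPKM of 6 of the genes in WAT (top) and BAT (bottom), with 1 bar per library and a separate axis from 0 in each panel. Adrb3 is highest in NCD-veh in WAT and in HFD-veh in BAT. The Adra1b panel of BAT covers values of 0.0258 to 0.0387 FPKM, about 2.1 to 3.2 fragments.

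With ncls, Adrb3 in WAT stayed near its HFD-veh level. Of the 5 members that passed the filter, 0 passed 2-fold between HFD-ncls and HFD-veh, where 1.70% of 12152 genes did. Adrb3 had a log2 ratio of 0.07, at 70.4 against 67.0 FPKM, and stayed far from the 211.6 of NCD-veh. The other 4 were lower in HFD-ncls, with log2 ratios of -0.54 for Pde4d, -0.50 for Adrb1, -0.29 for Adra1a and -0.23 for Pde3b, and a median over the 5 of -0.29 against 0.04 over all genes. Few genes had a lower ratio than Pde4d (0.987%) and Adrb1 (1.18%). Both rest on few fragments, about 131.4 against 218.2 for Pde4d and 56.3 against 91.8 for Adrb1. Adra1b and Adra2a did not reach 1 FPKM in either library.

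In BAT the diet went with more Adrb3. Of the 5 members that passed the filter, 1 was over 2-fold higher in HFD-veh than in NCD-veh and 0 lower, where 4.29% of 10444 genes passed 2-fold. Adrb3 was 3.87-fold higher (log2 ratio 1.95), and 36 genes, Adrb3 included, had a ratio this high or higher. Adrb1 was 1.46-fold higher (log2 ratio 0.53), Adra1a had a log2 ratio of 0.05, and Pde4d (-0.33) and Pde3b (-0.56) were lower in HFD-veh. The median over the 5 was 0.05, against -0.04 over all genes. Adra1d, an alpha-1 receptor like Adra1a, was at 4.32 FPKM in NCD-veh and 5.45 in HFD-veh BAT.

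With ncls, Adrb3 in BAT was lower again. It was at 24.5 FPKM in HFD-ncls, between the 13.4 of NCD-veh and the 51.9 of HFD-veh, and 2.12-fold lower than in HFD-veh (log2 ratio -1.08). It was the 1 member of 5 past 2-fold, where 1.96% of 10331 genes passed, and 1.50% of genes had a lower ratio. This comparison shares the HFD-veh library with the diet comparison, so a value of that library alone would move both. Adrb1 (-0.37) and Adra1a (-0.15) were lower in HFD-ncls, and Pde3b (0.29) and Pde4d (0.12) higher. The median over the 5 was -0.15, against -0.02 over all genes.

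The BAT libraries also differed in other tissue. The median skeletal muscle fibre marker was at 1.97%, 0.767% and 0.112% of the muscle level, and Adrb3 in muscle was at most 1.05 FPKM. The summed macrophage markers were 48.5, 71.2 and 43.4 FPKM, and the summed nerve and Schwann cell markers 46.1, 120 and 94.3, most of it S100b (33.7, 116 and 90.3). The summed adipocyte markers were 11211, 10219 and 10544 FPKM, and Ucp1 was at 770, 768 and 740. Of 8 adipocyte markers, 1 was over 2-fold higher in HFD-veh than in NCD-veh, Lep (3.68 against 0.597 FPKM). A further 2 were lower, among them Cfd (404 against 821). Of 7 brown adipocyte markers tested, 1 was lower, Elovl3 (7.39 against 18.6). With ncls 1 of 8 adipocyte markers was over 2-fold higher and 1 of 8 brown adipocyte markers lower. The part of these cells and tissues in the Adrb3 values was not tested.

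**Figure D5:**
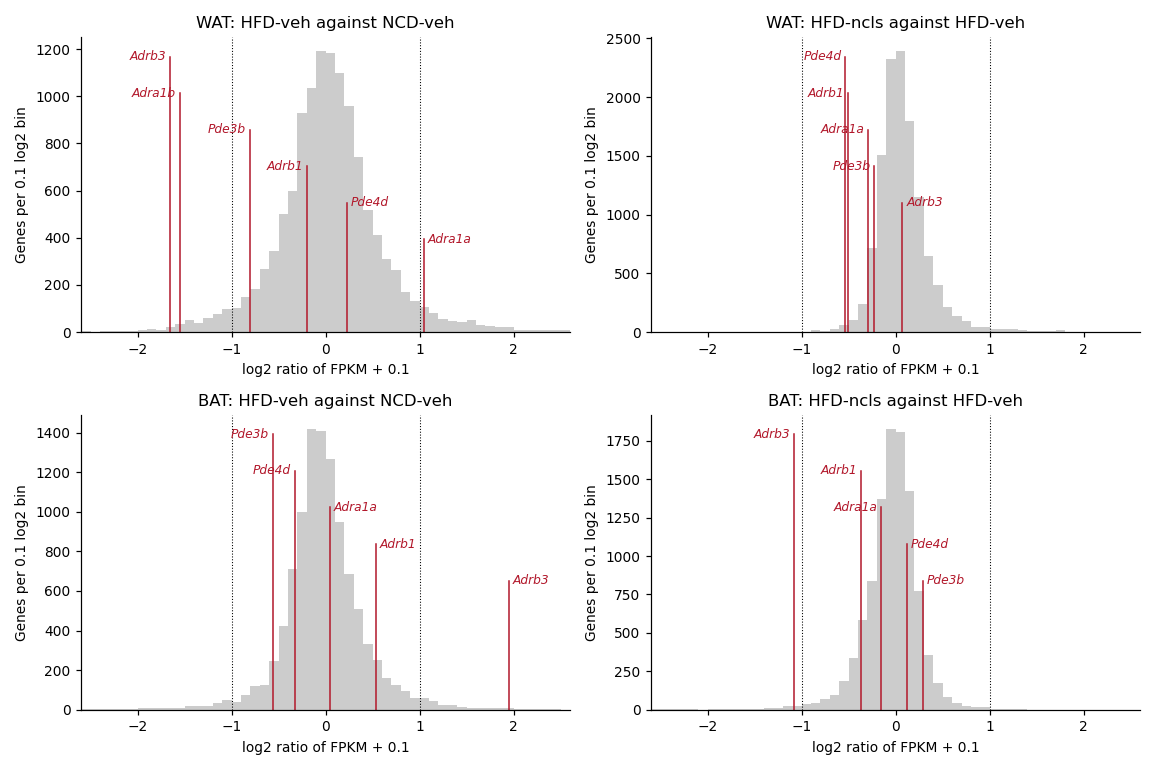
Number of genes per 0.1 bin of the log2 ratio of FPKM + 0.1 (grey) for HFD-veh against NCD-veh and HFD-ncls against HFD-veh in WAT and BAT, with red lines at the members and dotted lines at 2-fold. Adrb3 lies at -1.66 and 0.07 in WAT and at 1.95 and -1.08 in BAT.

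In liver 4 members passed the filter in each comparison and 0 passed 2-fold, where 5.12% of genes did for HFD-veh against NCD-veh and 2.31% for HFD-ncls against HFD-veh. Adra1b was at 18.7, 14.6 and 22.3 FPKM, with log2 ratios of -0.35 for the diet and 0.60 for ncls, the latter 1.52-fold higher. Adrb3 had ratios of -0.36 and 0.45, Adra1a of -0.26 and -0.37, and Pde3b of 0.36 and -0.28. In muscle 2 members (Adrb3 and Pde4d) passed the filter for the diet and 1 (Pde4d) for ncls, and 0 passed 2-fold, where 4.11% and 3.80% of genes did. Pde4d had log2 ratios of -0.03 and 0.19. Adrb3 had one of -0.59 for the diet, where it reached 1 FPKM in NCD-veh only.

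Genes with a like pattern over the 12 libraries were sought by Pearson's r of log2(FPKM + 0.1) among 13648 genes, as a description, since libraries of an organ share that organ. The nearest to Adrb3 were Tenc1 (r = 0.987), Tacc1 (0.985) and Lamc3 (0.984). The nearest to Adra1b were Aldh7a1 (0.996), Apol9a (0.996) and Aox3 (0.995), all highest in liver. Plbd1 (0.990) and Ifi27l1 (0.989) were nearest to Adra1a, and Nmt2 (0.981) was among the nearest to Adrb1. Pex3 (0.995) was nearest to Pde3b, Ndufaf5 (0.988) to Pde4d and Vgll3 (0.996) to Adra2a. With r this high for several genes each, the ranking rests on differences in the third decimal.

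The pathway around the members was described from lists of its other genes. Each list count below stands beside the share of all genes past 2-fold. That share was 9.11% for the diet and 1.70% for ncls in WAT, and 4.29% and 1.96% in BAT. Of 3 other adrenergic receptors (Adra1d, Adra2b and Adra2c), 1 passed the filter in WAT, Adra1d, and it was over 2-fold higher in HFD-veh (3.26, 7.28 and 5.58 FPKM), as Adra1a was. Of 8 G protein subunits tested in WAT and 7 in BAT, 0 passed 2-fold in either comparison. Gnas, the stimulatory subunit, led that list in every organ and was at 644, 594 and 628 FPKM in WAT. Of the adenylyl cyclases, which make cAMP, 0 of 6 passed 2-fold in WAT, where Adcy5 led with 34.9, 55.4 and 40.2 FPKM. In BAT 1 of 4 did for the diet, Adcy9, with 5.97, 2.27 and 3.36 FPKM.

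Of the other cAMP phosphodiesterases, 3 of 9 tested were over 2-fold higher in HFD-veh WAT (Pde2a, Pde7a and Pde7b) and 1 lower (Pde1a, at 17.3, 6.45 and 6.55 FPKM), and 0 passed 2-fold with ncls. In BAT 1 of 8 was over 2-fold higher with the diet, Pde4b, with 1.64, 3.87 and 2.78 FPKM. Of the subunits and inhibitors of protein kinase A, 0 of 8 passed 2-fold in WAT in either comparison. In BAT 1 of 7, the inhibitor Pkia, was over 2-fold lower with ncls (2.28, 1.72 and 0.306 FPKM), beside 108 to 128 FPKM in muscle and the falling muscle fibre markers given above. Prkar2b, the regulatory subunit typical of fat, led the list in WAT (171, 237 and 205 FPKM) and BAT (177, 179 and 180). Of 6 genes of receptor desensitization tested in each fat tissue, led by the receptor kinase Adrbk1, 0 passed 2-fold.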

How the data were processed

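RNA-seq of 12 libraries was analysed, 1 for each of 4 organs and 3 groups. Per the labels, the deposited FPKM values per gene symbol were made by the authors with TopHat (alignment to mm9) and Cufflinks (RefSeq genes), and no scaling between libraries beyond FPKM is described. Of 22276 symbols, 86 lacked a value in at least 1 library and were left out where it was missing. The 7 members, the pathway and marker lists and the rules were chosen with earlier results of these data known. Log2 ratios used a pseudocount of 0.1 FPKM and genes with at least 1 FPKM in 1 of the libraries compared. Calls used 2-fold alone. The study used this fold together with p-value and FDR limits, and 1.4-fold in a further look at muscle. No test was run with 1 library per group. Depth was estimated from the steps of 1 fragment in low FPKM values and transcript lengths (GENCODE vM1), and is approximate. Pathway genes were named where they averaged at least 1 FPKM in WAT or BAT and changed over 2-fold there, or led their list in an organ, and for each member the 3 most correlated genes were found. Python 3.11.15, numpy 2.4.6, pandas 2.3.3 and matplotlib 3.10.9 were used. Alternatives changed the pseudocount, filter, fold, scaling and libraries used. Some genes of the lists are not reported here.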

Additional observations from a re-analysis of the deposited data

Results flagged for a closer look

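The diet ratio of Adrb3 had opposite signs in the fat tissues and passed 2-fold in both. HFD-veh was lower than NCD-veh in WAT, with a log2 ratio of -1.66, and higher in BAT, with a log2 ratio of 1.95. The difference between the tissues was not tested, because each value compares 1 library with 1 library.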

How the results depend on the processing

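No paired analysis was possible because each organ and group has 1 library, so that replicate numbers pair nothing within an organ, and a fit over the groups with organ as a block was left out. Of the 96 recomputed member ratios under other pseudocounts or rescaling within the organ, 95 moved by less than 1.5-fold, 1 (Adra1b in WAT for the diet, pseudocount of 1 FPKM) moved more and 0 turned a call past 2-fold to the other sign. The count past 2-fold in WAT for the diet was 3, and 1 (Adrb3) with a pseudocount of 1 FPKM or a minimum of 5 FPKM. At 1.4-fold the counts were 2 in WAT for ncls (Adrb1 and Pde4d, lower), 3 in BAT for the diet (Adrb3 and Adrb1 higher, Pde3b lower), 1 in liver for ncls (Adra1b, higher) and 1 in muscle for the diet (Adrb3, lower). Adrb3 in muscle reached 1 FPKM in NCD-veh only. The share of all genes past 1.4-fold is not given here, so these counts are not a result about the members. The planned shares over a wider set of receptors were left out. Without each library in turn the mean share among the 5 members ranged from 91.3% to 94.8% in WAT, 62.1% to 75.0% in BAT, 77.0% to 79.0% in liver and 62.2% to 71.4% in muscle. Rescaled over the 12 libraries, 3 members did not overlap between BAT and WAT instead of 6. Values under 0.1 FPKM rest on few fragments, and differences among them were not detectable.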

Other observations

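A list of 17 transcription factors of the cAMP pathway and genes that cAMP can induce was also described. Of the 15 tested in WAT, 1 was over 2-fold higher in HFD-veh than in NCD-veh, the immediate early gene Fos (7.23, 14.9 and 26.3 FPKM for NCD-veh, then HFD-veh, then HFD-ncls), and 1 lower, Pck1 (836, 141 and 146), the enzyme of glyceroneogenesis, beside 9.11% of all genes past 2-fold. In HFD-ncls 2 of 14 were over 2-fold higher than in HFD-veh WAT, the nuclear receptor Nr4a1 (3.76, 5.43 and 11.4) and the kinase Sik1 (4.22, 6.13 and 12.5), beside 1.70% of all genes past 2-fold. In BAT 2 of 16 were over 2-fold higher with the diet, Fos (1.80, 44.2 and 29.4) and Sik1 (4.50, 9.95 and 7.59), beside 4.29% of all genes past 2-fold. With ncls 1 of 16 was lower, Dio2 (1.32, 1.62 and 0.484), which activates thyroid hormone in brown fat, beside 1.96% of all genes past 2-fold. Fos was also at 0.145, 3.04 and 2.84 FPKM in liver and at 1.65, 14.8 and 6.73 in muscle, so that HFD-veh lay above NCD-veh in all 4 organs.

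Of 7 lipolysis genes 0 passed 2-fold in WAT or BAT in either comparison, and Pnpla2, the first lipase of triglyceride breakdown, led with 851, 678 and 599 FPKM in WAT and 1101, 879 and 931 in BAT. Of the genes that make or clear catecholamines, 2 of 8 were tested in each fat tissue and 0 passed 2-fold. In liver 10 of 10 tested skeletal muscle fibre markers were over 2-fold higher in HFD-veh than in NCD-veh, at a median of 0.0614% of the muscle level. Only 1 of them reached 1 FPKM in NCD-veh, so most passed the filter through HFD-veh alone. Of all genes in liver 5.12% passed 2-fold.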
